A study of Mus musculus with 7 samples.

Results

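The genes described here encode mitochondrial carriers of the SLC25 family, measured in LSK cells of mouse bone marrow 1 day after the end of tamoxifen treatment to delete the kinase gene Lkb1 (symbol Stk11). They were taken as genes whose only symbol in the array's annotation begins with Slc25a, each represented by its probe set with the highest mean signal over the 7 arrays. This gave 32 of the 12393 genes named on the array, with 63 probe sets in all, and 28 of the 32 had enough signal to be tested. LSK cells are marrow cells without mature lineage markers that display Sca-1 together with c-Kit, and include the blood stem cells and the earliest progenitors.

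The Lkb1 KO group was 4 samples (numbers 4 to 7) from Lkb1 L/L rosa26CreERT2 mice, and the Lkb1 WT group was 3 samples (numbers 5 to 7) from Lkb1 L/L mice. All were adult mice of the C57BL/Ka-CD45.2:Thy-1.1 strain that carried the floxed gene and were given tamoxifen for 5 days, so that the Cre recombinase was present in the KO mice alone. The rosa26 locus is active in most cell types, so the Cre was not limited to blood cells. Each array was made from 15000 to 20000 sorted cells, of which some 10 ng of RNA was amplified and labelled with biotin. Nothing in the labels says that the samples came from different animals, and p-values therefore cover only the spread among these samples, which may be technical.

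SLC25 carriers are nuclear-encoded membrane proteins, most of them in the inner mitochondrial membrane, that move metabolites between the matrix and the cytosol. They exchange ADP for ATP, import phosphate, and carry organic acids, amino acids, nucleotides, cofactors and iron, and each carrier sets which compounds a matrix pathway can use or export. Stem and progenitor cells draw on them for ATP export, haem synthesis and amino acid and nucleotide supply, and the kinase LKB1 is known as an upstream activator of the energy sensor AMPK.

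KO arrays were brighter than WT arrays as deposited, with trimmed mean signals of 360.4 to 425.9 in KO and 228.6 to 340.5 in WT (two-sided exact permutation p = 0.0286, the smallest that 35 splits can give). Values below are therefore quantile-normalized signals, and differences are KO minus WT of log2(signal + 16), which understates changes of dim genes. The Actb 3' to 5' signal ratio, a sign of RNA length, lay between 11.41 and 12.29 on KO arrays and between 12.6 and 13.11 on WT arrays (exact permutation p = 0.0571). The same ratio for Gapdh did not separate the groups. It ran from 7.49 to 7.945 in KO, inside the WT range of 6.676 to 9.463 (exact permutation p = 0.6). The deleted gene Stk11 gave signals of 130, 112, 87.5 and 71.6 on the KO arrays, against 185, 128 and 149 on the WT arrays, with overlapping groups (limma adjusted p = 0.117), and whether its probes lie in the deleted part is not known here. Of 7 measured genes that mark these cells, 6 were above the background level of 13.64 on every array, and Ly6a was not analysed here. Their sum was lower in KO (10500 to 11400, against 13400 to 14600 in WT; exact permutation p = 0.0286). All 6 tested had negative differences, and Kit (-0.43) and Hlf (-0.84) fell (limma adjusted p = 0.0469 and 0.0108). B lineage genes summed to 611 to 760 in KO and 621 to 828 in WT, with 2 of 7 genes tested. Megakaryocyte genes summed to 1280 to 1650 in KO and 1610 to 1960 in WT, with 5 of 6 tested. Both sums overlapped, and no gene of either list passed the threshold. Of the 5 tested megakaryocyte genes, 4 had negative differences, 3 of them without overlap (12.7% of all genes), and the median was -0.28. None of 6 T and NK cell genes had enough signal to be tested. Mature granulocyte and monocyte genes summed to 14800 to 21000 in KO and 36000 to 49600 in WT. All 13 measured genes were above background on at least 1 array. Of the 13, 11 were lower in KO at limma adjusted p under 0.05, against 2.88% of all genes. Csf1r was the 1 gene of this list with a positive difference (0.75, limma adjusted p = 0.0829), without overlap between the groups.

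The SLC25 family showed no common shift. Over the 28 tested members the median difference was -0.05, against -0.02 over all 8077 genes tested, with 13 members above 0 and 15 below. With intensities as deposited these medians were 0.31 and 0.34. In limma with Benjamini-Hochberg adjustment over all genes, 1 member rose (Slc25a5) and 1 fell (Slc25a53), so that 2 of 28 passed, where 2.48% of all genes rose and 2.88% fell (5.36% in either direction). KO and WT arrays did not overlap for 10 of the 28 members (35.7%), 5 higher and 5 lower, against 24.1% of all genes. An unadjusted p under 0.05 was reached by 9 members (32.1%), against 25.4% of all genes. Single members were therefore spread to both sides of a centre near 0, from -0.95 to 0.60.

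**Figure D1:**
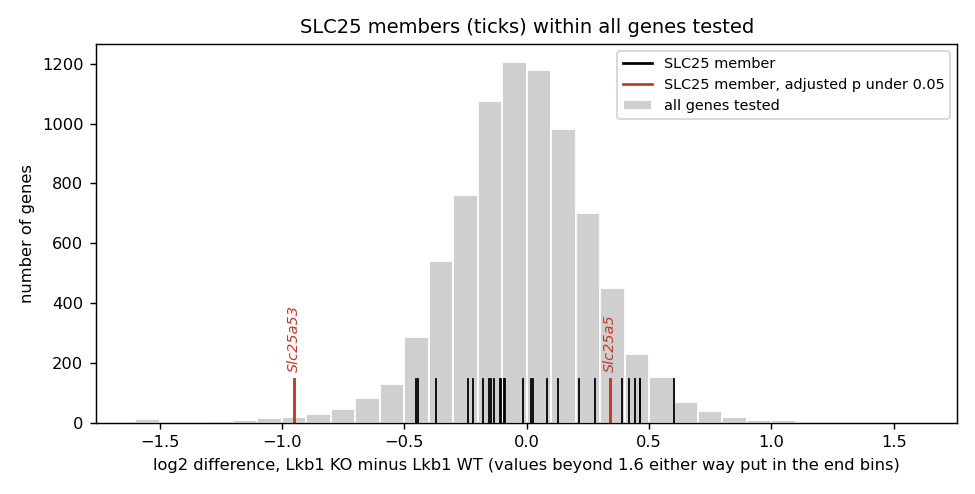
Number of genes (y axis) by log2 difference, KO minus WT (x axis), for the 8077 genes tested, with a tick for each of the 28 tested SLC25 members. The members lie on both sides of 0, and the 2 that passed the threshold are named, Slc25a53 at -0.95 and Slc25a5 at 0.34.

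The largest change in the family was a fall of Slc25a53, a member whose transported compound is not established. Its normalized signal was 769, 695, 840 and 596 in KO 4 to 7, against 1318, 1460 and 1436 in WT 5 to 7. Every KO array lay far below every WT array, and the fall was to 0.52-fold (-0.95 ± 0.13, SE; limma adjusted p = 0.0137; exact permutation p = 0.0286). Its mean log2 level over the 4 KO arrays was 9.52 with an SD of 0.21, and over the 3 WT arrays 10.47 with an SD of 0.08. Before normalization the deposited signals were 961.2, 800.7, 889.9 and 618.4 in KO and 1288, 1318.9 and 922.6 in WT, so that the dimmest array, WT 7, fell below KO 4. With intensities as deposited the difference was -0.52 (adjusted p = 0.089), while the median of all genes was then 0.34. The call held in 5 of 7 fits that left out 1 array, with adjusted p of 0.0501 without WT 6 and 0.0517 without WT 7. Fitted together with the Actb ratio, the difference was -0.83 (limma adjusted p = 0.484). That ratio did not overlap between the groups, so here and below such a fit cannot divide a difference between ratio and genotype. Only 1 probe set measured the gene.

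Slc25a5 encodes the ADP/ATP carrier ANT2, the form known from dividing cells, and it was the member that rose. Its signal was 8167, 7973, 7831 and 8126 in KO 4 to 7, against 6377, 6174 and 6460 in WT 5 to 7. The values within each group were close together and the groups were well apart, a rise of 1.27-fold (0.34 ± 0.08, SE; limma adjusted p = 0.0479; exact permutation p = 0.0286). The call rested on all 7 arrays: it was lost in each of the 7 fits without 1 array, in which the difference stayed between 0.31 and 0.35 and the adjusted p between 0.0894 and 0.123. With the Actb ratio as a covariate the difference was 0.31 (adjusted p = 0.66). The rise was seen beyond the chosen probe set, since all 8 probe sets of Slc25a5 were higher in KO, by 0.22 to 0.63, and 7 of the 8 did not overlap between the groups, against 22.5% of all probe sets with enough signal. These 8 probe sets share a target and are not replicates, and 6 of them carry the array maker's mark for probes that can also bind related transcripts.

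Genes of DNA synthesis were higher in the same samples. The S phase list summed to 42700 to 45500 in KO and 33700 to 35100 in WT. Of its 11 tested genes, 5 were past the threshold as higher, against 2.48% of all genes. Their part in the Slc25a5 value was not tested. In bulk RNA of a sorted population, a change in the share of cells of a type and a change in RNA per cell cannot be told apart.

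The start-site windows of the 2 members that passed the threshold are shown, with that of Slc25a4, the other tested ADP/ATP carrier gene, for comparison. They are RefSeq promoters on GRCm38.p6, from 250 bases before to 50 after the start, 5′ to 3′ on the gene's strand, and Slc25a53 has 2 listed starts. Capitals mark the motifs searched on both strands. The E-box was searched as CACGTG. The GC box was searched as GGGCGG. The CCAAT box was searched as CCAAT. The NRF1 core was searched as GCATGCGC. The ERR half-site was searched as AAGGTCA. None of these motifs contains another, and a window was counted once however many matches it held.
Slc25a53, chrX:137038253-137038552, minus strand: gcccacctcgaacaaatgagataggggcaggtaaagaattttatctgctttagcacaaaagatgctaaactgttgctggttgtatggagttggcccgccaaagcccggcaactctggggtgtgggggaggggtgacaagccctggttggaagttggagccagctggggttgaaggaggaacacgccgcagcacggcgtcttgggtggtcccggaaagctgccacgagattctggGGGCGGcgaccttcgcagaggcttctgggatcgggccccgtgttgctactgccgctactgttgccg
Slc25a53, chrX:136992983-136993282, minus strand: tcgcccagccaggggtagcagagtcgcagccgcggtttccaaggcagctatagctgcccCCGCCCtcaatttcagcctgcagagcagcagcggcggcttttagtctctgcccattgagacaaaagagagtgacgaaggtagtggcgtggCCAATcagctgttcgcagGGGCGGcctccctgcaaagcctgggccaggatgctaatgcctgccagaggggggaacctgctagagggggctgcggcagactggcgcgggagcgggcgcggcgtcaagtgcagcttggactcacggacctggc
Slc25a5, chrX:36795347-36795646, plus strand: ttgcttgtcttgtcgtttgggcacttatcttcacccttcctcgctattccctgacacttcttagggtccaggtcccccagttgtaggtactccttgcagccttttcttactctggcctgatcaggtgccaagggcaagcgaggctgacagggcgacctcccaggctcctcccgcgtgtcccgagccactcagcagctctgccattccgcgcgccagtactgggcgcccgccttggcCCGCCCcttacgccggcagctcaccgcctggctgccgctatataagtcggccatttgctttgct
Slc25a4, chr8:46211013-46211312, minus strand: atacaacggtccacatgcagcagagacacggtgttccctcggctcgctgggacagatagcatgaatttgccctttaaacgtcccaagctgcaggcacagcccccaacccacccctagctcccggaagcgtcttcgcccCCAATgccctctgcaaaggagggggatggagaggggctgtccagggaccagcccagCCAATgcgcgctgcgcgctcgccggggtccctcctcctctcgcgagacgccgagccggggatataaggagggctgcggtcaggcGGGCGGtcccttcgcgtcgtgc
Each of the 4 windows holds at least 1 GC box, and none holds an E-box, the NRF1 core or the ERR half-site. The table lists windows for 25 of the 32 members, 34 windows in all. A GC box was in 91.2% of these windows and in 35.7% of all 32851 windows of the table, a CCAAT box in 55.9% and 37.4%, and an E-box in 17.6% and 7.15%. The E-box windows belonged to Slc25a13, Slc25a14, Slc25a15, Slc25a33 and Slc25a36. The NRF1 core and the ERR half-site were in none of the 34 windows, against 2.71% and 4.72% of all windows. These are matches of letters in the window, not measured sites.

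Among the other carriers of adenine nucleotides and phosphate, Slc25a3, the phosphate carrier that also brings copper to the matrix, had signals of 10743, 11374, 11210 and 11074 in KO and 9583, 9603 and 9475 in WT. The groups did not overlap, but the difference of 0.22 ± 0.08 (SE) did not pass (limma adjusted p = 0.138). Slc25a4, which encodes ANT1, the ADP/ATP carrier known from muscle and heart, was at -0.09 in its brightest probe set (adjusted p = 0.581; interval of the difference -0.32 to 0.13). Its signal there was 4370, 3917, 4283 and 4183 in KO and 4016, 4729 and 4696 in WT. The other probe sets of Slc25a4 with enough signal ran the opposite way, at 0.20 and 0.31, both without overlap between the groups. Slc25a23, an ATP-magnesium and phosphate exchanger, was at -0.13 (adjusted p = 0.51). Its relatives Slc25a24 and Slc25a25 lay below the signal filter.

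Because both ADP/ATP carriers are read on the same array, their ratio does not move with a scale factor common to an array. The log2 ratio of Slc25a5 to Slc25a4 ran between 0.87 and 1.02 in KO and between 0.38 and 0.67 in WT, a difference of 0.43 (exact permutation p = 0.0286; 0.0857 adjusted over 3 pairs of carriers of a shared substrate). The deposited signals gave 0.43 as well. This result belonged to 1 Slc25a4 probe set: against the other probe sets of Slc25a4 the difference was 0.14 (exact permutation p = 0.114) and 0.03 (exact permutation p = 0.743). The difference in the ratio thus depended on which Slc25a4 probe set was used. The 3 pairs were chosen after their values were seen.

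**Figure D2:**
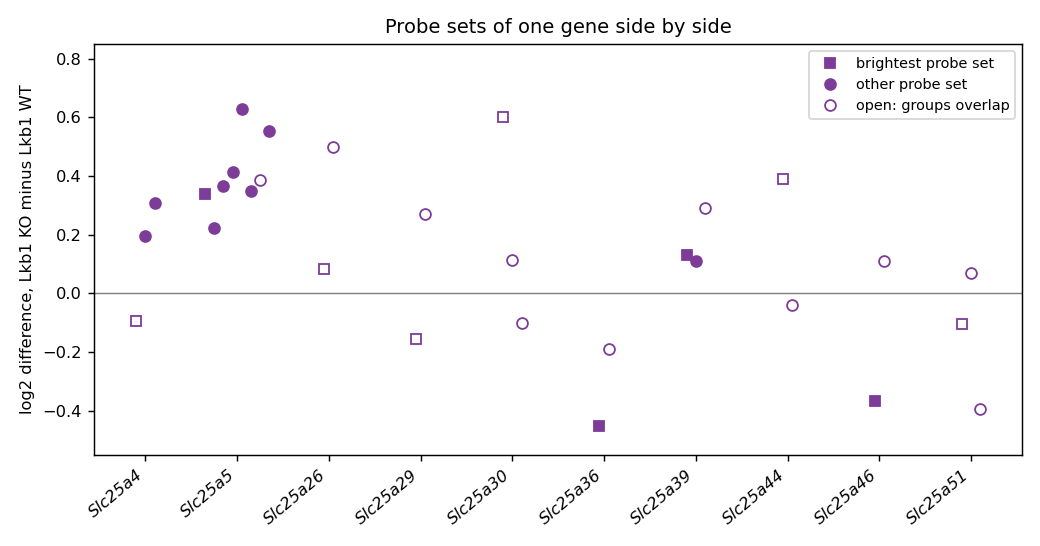
Log2 difference, KO minus WT (y axis), for each probe set with enough signal of the 10 members with more than 1 such probe set (x axis). Squares are the brightest probe set, circles the others, and open symbols mark overlapping groups. The 8 probe sets of Slc25a5 are all above 0, while those of Slc25a4 lie on both sides of it.

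None of the 6 tested nucleotide and cofactor carriers passed the threshold, and 3 had positive and 3 negative differences. Slc25a36 carries pyrimidine nucleotides. Its signal was 3224, 3878, 4109 and 3142 in KO and 5112, 4916 and 4651 in WT, without overlap, and the difference was -0.45 ± 0.12 (SE; limma adjusted p = 0.0632). With intensities as deposited the difference was -0.10 (adjusted p = 0.747), and with the Actb ratio as a covariate -0.08 (adjusted p = 0.947). The dimmer probe set of Slc25a36 was at -0.19 with overlapping groups. Slc25a33, also a pyrimidine nucleotide carrier, had 189, 106, 94.5 and 115 in KO and 98.3, 68.1 and 88.8 in WT. It was at 0.46 (adjusted p = 0.223), with KO 6 inside the WT range. The log2 ratio of Slc25a33 to Slc25a36 ran from -5.22 to -3.98 in KO and from -5.87 to -5.48 in WT. The difference was 0.92 (exact permutation p = 0.0571, or 0.0857 adjusted over the 3 pairs). The pairs were chosen after their values were seen, which this adjustment does not cover. The ratio was not computed with the dimmer Slc25a36 probe set.

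Slc25a17, a peroxisomal carrier of coenzyme A and other cofactors and so an exception to the mitochondrial location of the family, had signals of 512, 656, 546 and 615 in KO and 428, 395 and 447 in WT. All KO arrays were above all WT arrays, with a difference of 0.44 ± 0.11 (SE; limma adjusted p = 0.0578). It passed with median centring (0.58; adjusted p = 0.0242) and as deposited (0.85; adjusted p = 0.00882). The remaining members of the group differed little in their brightest probe sets. The mitochondrial NAD carrier gene Slc25a51 was at -0.10, the coenzyme A carrier gene Slc25a42 at -0.01 and the S-adenosylmethionine carrier gene Slc25a26 at 0.08, with adjusted p of 0.509 to 0.941. The difference for Slc25a26 was measured loosely there, with an interval of -0.45 to 0.62. Dimmer probe sets with enough signal were at 0.50 for Slc25a26 and at 0.07 and -0.39 for Slc25a51, all with overlapping groups.

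Of 7 tested genes listed as amino acid carriers, none passed, and the group's median was 0.02. Slc25a15, the ornithine carrier of the urea cycle and of polyamine and arginine metabolism, had signals of 870, 722, 975 and 870 in KO and 625, 670 and 614 in WT. These groups did not overlap (0.42 ± 0.11, SE; limma adjusted p = 0.0695; 0.0242 with median centring and 0.0104 as deposited), while its dimmer probe set lay below the filter. Slc25a44, a carrier of branched-chain amino acids, was at 0.39 (adjusted p = 0.296) and Slc25a38, the glycine carrier needed for haem synthesis, at 0.28 (adjusted p = 0.47). Slc25a13, the aspartate and glutamate exchanger citrin of the malate-aspartate shuttle, was at 0.02 (interval -0.35 to 0.39). The glutamate carrier gene Slc25a22 was at -0.15 and the basic amino acid carrier gene Slc25a29 at -0.16, while Slc25a47 was at -0.09. Dimmer probe sets with enough signal had the opposite sign, at -0.04 for Slc25a44 and 0.27 for Slc25a29, both with overlapping groups. Slc25a2, an ornithine carrier, and Slc25a48 were below the filter.

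**Figure D3:**
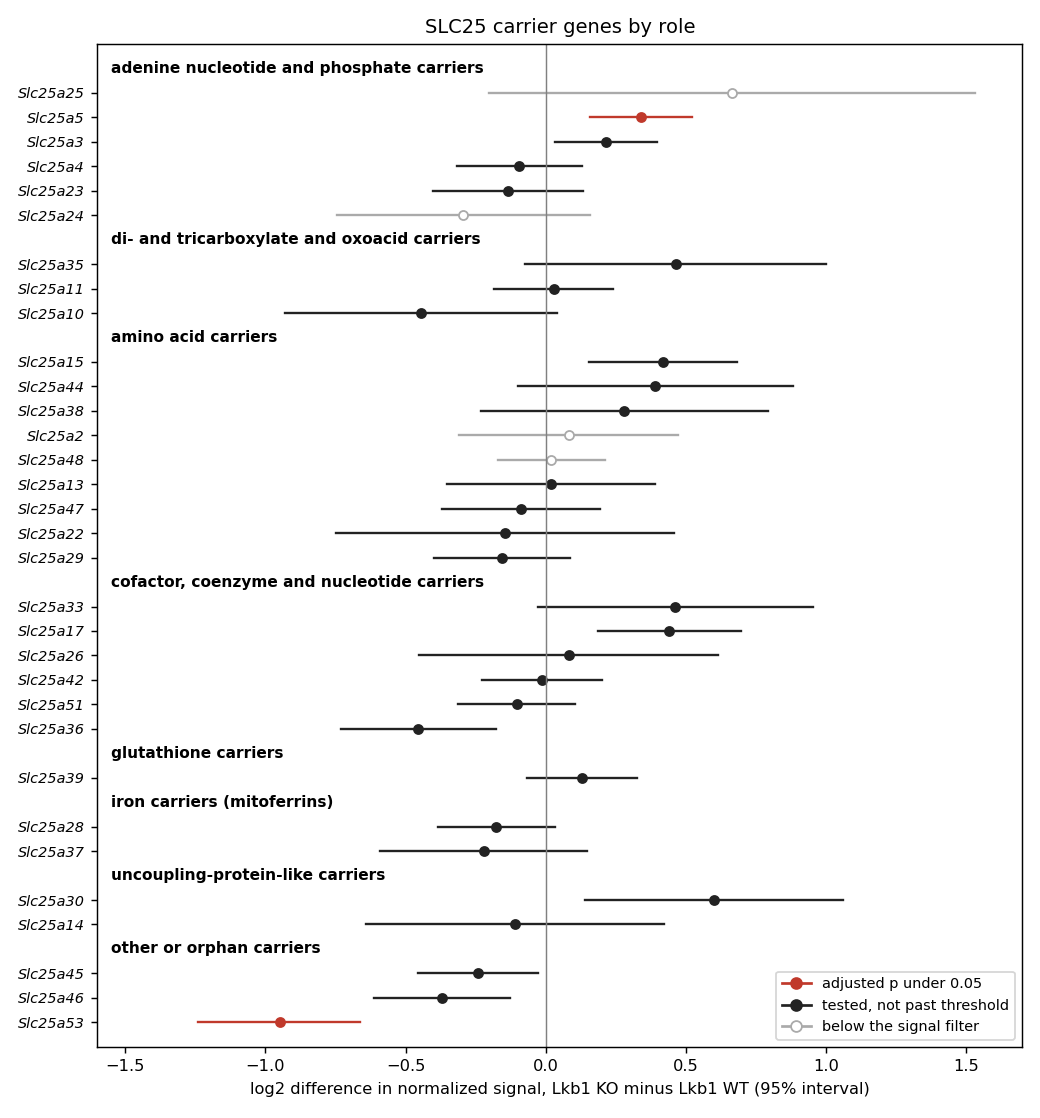
Log2 difference, KO minus WT, with its 95% interval from limma (x axis, log2 units) for the 32 SLC25 members grouped by role (y axis). Red marks adjusted p under 0.05 and open grey circles the 4 members below the signal filter. The intervals of Slc25a53 and Slc25a5 exclude 0, as do those of 7 members that did not pass after adjustment.

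Organic acid carriers gave no change past the threshold. Slc25a10, the dicarboxylate carrier that exchanges malate or succinate for phosphate, had signals of 155, 130, 89.9 and 102 in KO and 156, 222 and 129 in WT. The groups overlapped and the difference was -0.44 (limma adjusted p = 0.235). The oxoglutarate and malate carrier gene Slc25a11, also of the malate-aspartate shuttle, was at 0.03 with an interval of -0.18 to 0.24, and Slc25a35, above background on 2 of 3 WT arrays, was at 0.46 (adjusted p = 0.259).

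Carriers tied to haem and redox metabolism were also without a call. Slc25a39, which brings glutathione into mitochondria, had signals of 7724, 7517, 7305 and 8147 in KO and 7287, 6917 and 6840 in WT. These did not overlap, though KO 6 and WT 5 were nearly equal, and the difference was 0.13 (limma adjusted p = 0.384). The mitoferrins import iron for haem and iron-sulphur clusters. Slc25a28 (mitoferrin-2) had 544, 631, 534 and 572 in KO and 646, 646 and 644 in WT, a difference of -0.18 (adjusted p = 0.269) without overlap, and 0.25 in the scaling as deposited. Slc25a37 (mitoferrin-1), the form known from red cell precursors, was at -0.22 with wide overlap (adjusted p = 0.425). Erythroid marker genes summed to 3610 to 4700 in KO and 5080 to 6700 in WT, with all 11 measured genes above background on at least 1 array. Of 8 tested, 1 was past the threshold as higher (Hba-a2), against 2.48% of all genes. In the other direction 1 was past it as lower (Ermap), against 2.88% of all genes. Of these 8, 7 had negative differences, all 7 without overlap (12.7% of all genes were lower without overlap), and the median was -0.50. Their part in the mitoferrin values was not tested. The log2 ratio of Slc25a37 to Slc25a28 differed by -0.04 between the groups (exact permutation p = 0.914).

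Slc25a30, a carrier related to the uncoupling proteins, had the highest positive difference of the tested members, 0.60 ± 0.20 (SE), which did not pass (limma adjusted p = 0.114). Its signal was 38.4, 67.1, 78.3 and 72 in KO and 42.1, 39.2 and 26.8 in WT. KO 4 lay inside the WT range and the other KO arrays above it, and without KO 4 the difference passed (0.77; limma adjusted p = 0.048). Its other probe sets with enough signal were at 0.11 and -0.10. Slc25a14, also called UCP5, was at -0.11 (adjusted p = 0.808).

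All 3 tested genes listed as other or orphan carriers had negative differences without overlap, where 12.7% of all genes were lower without overlap. Slc25a53 was the one past the threshold, where 2.88% of all genes fell. Slc25a46 encodes a protein of the outer mitochondrial membrane linked to mitochondrial shape. Its signal was 1251, 1295, 1335 and 1147 in KO and 1439, 1695 and 1762 in WT, a difference of -0.37 ± 0.11 (SE; limma adjusted p = 0.0766). A dimmer probe set of Slc25a46 was at 0.11, and with intensities as deposited the brightest was at 0.07. Slc25a45 had 545, 562, 578 and 515 in KO and 639, 610 and 713 in WT (-0.24; adjusted p = 0.157), and was at 0.19 as deposited. The fall of Slc25a53 alone kept a negative sign in this group under that scaling.

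**Figure D4:**
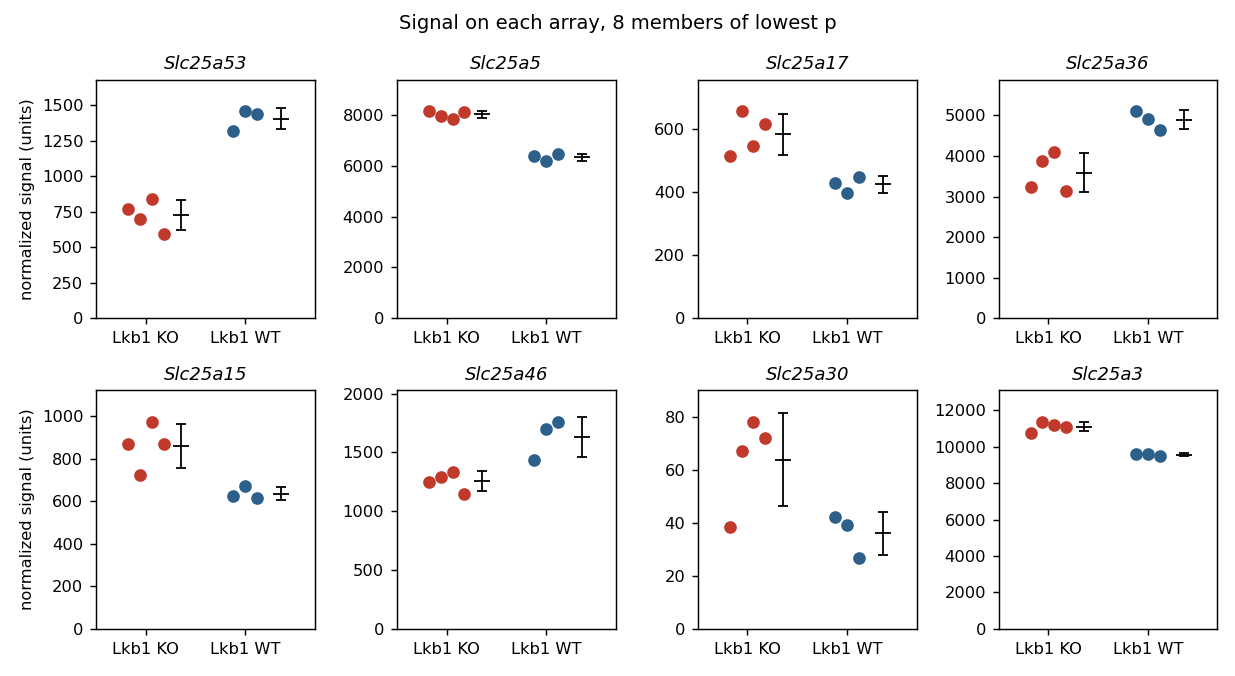
Quantile-normalized signal in array units (y axis, from 0) on each of the 7 arrays for the 8 members of lowest p, KO left of WT, with the mean and SD of each group beside its points. The groups are apart for 7 of the 8 genes, while for Slc25a30 the lowest KO array, at 38.4, lies among the WT arrays. Choosing genes by low p favours groups that lie apart, which held for 24.1% of all genes tested.

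The 4 members below the filter gave little signal. Slc25a24 and Slc25a48 exceeded the background level on none of the 7 arrays. Slc25a2 and Slc25a25 exceeded it on all 4 KO arrays and on 1 WT array in deposited signals, and the WT arrays were the dimmer ones overall. Slc25a25, an ATP-magnesium carrier known for induction by stimuli, had normalized signals of 44.1, 34.1, 15.1 and 57.2 in KO and 38.7, 9.4 and 8.1 in WT. The groups overlapped, and no fold is given.

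Where several probe sets with enough signal measured a member, their signs often differed. Of 10 such members, 6 had differences of both signs (Slc25a4, Slc25a29, Slc25a30, Slc25a44, Slc25a46 and Slc25a51). In Slc25a4, Slc25a44, Slc25a46 and Slc25a51, 1 sign rested on a value smaller than its SE (-0.09, -0.04, 0.11 and 0.07). This was not so in Slc25a29 and Slc25a30. The share of such genes over all genes was not computed. Slc25a5, Slc25a26, Slc25a36 and Slc25a39 kept 1 sign over all their probe sets. Within groups the members were about as tight as other genes, with a median SD of 0.15 against 0.18 for all genes, and ranged from 0.03 for Slc25a3 to 0.43 for Slc25a22. Of the 28 tested members, 3 are annotated to the X chromosome, and both members past the threshold are among them, while the third, Slc25a14, was not past it. The called members went opposite ways. Over all genes 5.36% passed in either direction, and the share among all genes of the X chromosome was not computed. This grouping by chromosome was looked at after the values were seen.

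The scaling between arrays mattered for the sign of small differences, and 12 of the 15 negative ones were positive as deposited. With intensities as deposited, the median over all genes was 0.34 and 25 of 28 members were above 0, but 13 of 28 lay above that median, against 14 of 28 above the all-gene median after quantile normalization. Slc25a53, Slc25a36 and Slc25a10 were the members below 0 in both. Of all calls, 97% were higher as deposited and 76.9% with median centring, against 46.2% after quantile normalization.

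**Figure D5:**
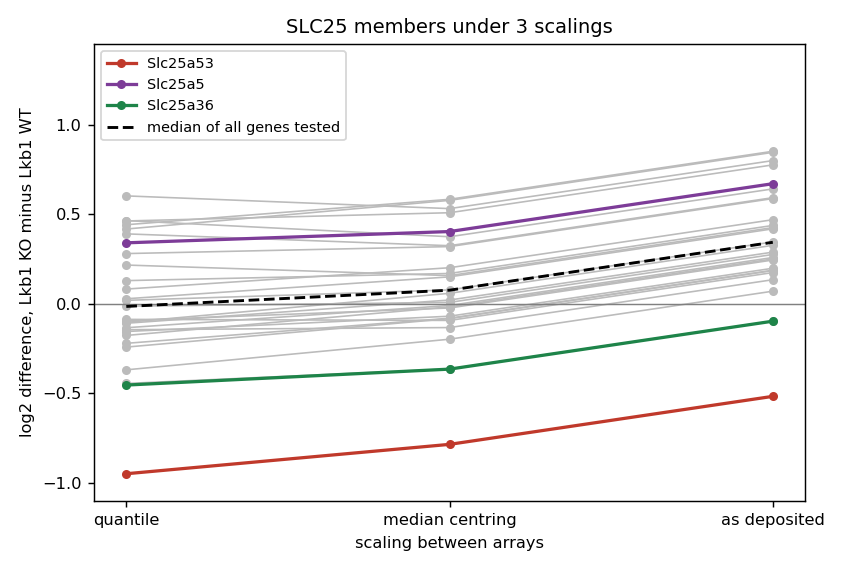
Log2 difference, KO minus WT (y axis), of the 28 tested members under quantile normalization, median centring and no scaling (x axis), with the median of all genes tested as a dashed line. The members shift upward with that median, and Slc25a53 stays the lowest, at -0.95, -0.79 and -0.52.

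Other transport genes of mitochondria, outside the Slc25a symbols, were also examined. Of 27 listed, 19 were tested, with a median of 0.18 (-0.02 over all genes tested). None fell (2.88% of all genes) and 2 rose (2.48% of all genes). The first was Mpc1, a subunit of the mitochondrial pyruvate carrier. Its signal was 443, 504, 451 and 464 in KO and 281, 295 and 320 in WT, with every KO array above every WT array (0.61 ± 0.09, SE; limma adjusted p = 0.0197). The second was Letm1, an inner membrane protein of potassium and calcium exchange, with 129, 104, 111 and 95.8 in KO and 76, 51.4 and 56.3 in WT (0.72 ± 0.14, SE; limma adjusted p = 0.0289). Without 1 array, Mpc1 passed in 4 of 7 fits (adjusted p of 0.0418 to 0.0604) and Letm1 in 1 (0.045 to 0.0845). The outer membrane channel gene Vdac1 was at -0.04 (adjusted p = 0.776) and the carrier-like gene Mtch2 at 0.26 (adjusted p = 0.141). Ucp2 and Mpc2 were not analysed here.

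Of 34 listed enzymes that make or use what the carriers move, 23 were tested, with a median of 0.20 (-0.02 over all genes). None fell (2.88% of all genes) and 1 rose (2.48% of all genes). It was Got2, the mitochondrial aspartate aminotransferase of the malate-aspartate shuttle, at 1505, 1418, 1449 and 1332 in KO and 1068, 1007 and 825 in WT (0.56 ± 0.11, SE; limma adjusted p = 0.0311). It passed in none of the 7 fits without 1 array, where adjusted p was 0.0533 to 0.0731. The shuttle's other enzymes were Got1 at 0.28 (adjusted p = 0.376), Mdh1 at -0.02 (adjusted p = 0.901) and Mdh2 at 0.16 (adjusted p = 0.363). Its carriers Slc25a11 and Slc25a13, given above, differed by 0.03 and 0.02. The mitochondrial one-carbon enzymes Shmt2 and Mthfd2 were at 0.45 (adjusted p = 0.0612) and 0.28 (adjusted p = 0.326).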

How the data were processed

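The values deposited by the authors are linear signal intensities of 1-colour arrays with 22690 probe sets, 64 of them controls. Per the submitters' processing notes the authors used MAS5; the settings and any target for scaling were not stated. Gene names came from the platform annotation, which gives 1 symbol for 20393 probe sets and several for 691 (not used); of the 20393, 20351 matched the GRCm38.p6 gene table. A further gene with such a symbol is not reported here.

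Signals were quantile-normalized over non-control probe sets and analysed as log2(signal + 16). The probe set with the highest mean stood for its gene, and genes with means over the 40th percentile of probe sets other than controls were tested. The background level, 13.64, is the 95th percentile of 189 deposited readings of 27 control probe sets for bacterial genes. The genotype difference was fitted in limma 3.58.1 under R 4.3.3 (intercept and genotype, Benjamini-Hochberg over 8077 genes, threshold 0.05), and single values by two-sided exact permutation over 35 splits. In simulated KO and WT data (8092 genes tested), 83% of 88 changes of 1 log2 unit and 48.5% of 99 changes of 0.5 were recovered, with 4 false calls among 125. Only planted changes in genes that passed the filter were counted. The simulated noise was independent between probe sets and held no scale difference between arrays, unlike the real arrays. The number of arrays limits the precision.

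Every member may be named; signals on each array were to be given for members past the threshold, the 8 of lowest p, the 3 brightest, and the member of lowest p in each role. Those of Slc25a4, Slc25a25, Slc25a33 and Slc25a45 were added after their values were seen. Of the transport and partner enzyme lists, genes past the threshold and a fixed set of others are named; marker lists are given by counts and sums, with a few named genes. The members and lists were chosen with earlier results of these data known. Alternatives covered scaling, pseudocount, filter, probe set choice, the replicate number as a block, the Actb ratio as a covariate, and leaving out each array. Arrays correlated with each other at 0.978 to 0.986, and no array repeated another's values.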

Additional observations from a re-analysis of the deposited data

Results flagged for a closer look

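In the KO group of 4 arrays (the 3 WT arrays are too few for this check), the highest or lowest array was checked for distance from the others in each of the 28 tested members, and 2 stood out, where chance gives about 1 in 20. Slc25a11 had a log2 signal of 8.388 in KO 5, against 8.469 to 8.478 on the other KO arrays, a small step beside a very tight group. Slc25a13 had 6.844 in KO 6, against 7.245 to 7.281 on the other KO arrays. Both are carriers of the malate-aspartate shuttle, neither passed the threshold, and different arrays stood apart.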

How the results depend on the processing

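Counts of calls and adjusted p-values here come from limma with Benjamini-Hochberg adjustment. The arrays as deposited are on different scales, so signs of small differences rest on the scaling, and dim members have wide intervals.

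Members past the threshold numbered 1 higher and 1 lower. They numbered 5 and 0 as deposited, 3 and 1 with median centring, 0 and 1 with a pseudocount of 1 or no filter, 3 and 2 with a pseudocount of 64, 3 and 3 with a filter at the 60th percentile (20 members tested), and 0 and 0 with the replicate block or the Actb ratio as a covariate. They were 0 to 1 in each direction without 1 array, and the 1 higher was Slc25a30, without KO 4. With the 60th percentile filter, Slc25a17, Slc25a15, Slc25a36 and Slc25a46 joined the 2 called members (adjusted p = 0.0311, 0.0399, 0.036 and 0.0446). The members' median, -0.0506, was 0.307 as deposited, 0.0394 with median centring, 0.00248 with no filter, -0.107 with the 60th percentile filter, and from -0.0603 to -0.0154 without 1 array.

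Over all genes, 200 were higher and 233 lower. The counts were 1370 and 42 as deposited, 548 higher with median centring, 324 and 370 with a pseudocount of 64, 28 and 47 with no filter (12393 genes tested), and 359 and 354 with the 60th percentile filter (5890 genes tested). They were 0 and 1 with the replicate block and 0 and 0 with the Actb ratio, where 1698 and 715 genes had an unadjusted p under 0.05. Each of the 7 fits without 1 array gave fewer calls, 9 to 77 higher and 35 to 115 lower, lowest for higher calls without KO 7 and for lower calls without WT 7. The cause was not tested.

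The 2 transport genes higher became 8 as deposited, 1 with no filter, the 60th percentile filter or the mean of all probe sets, 0 with the replicate block or the Actb ratio, and 0 to 1 without 1 array. The 1 partner enzyme higher became 9 as deposited, 4 with median centring, a pseudocount of 64 or the 60th percentile filter, 0 with no filter, the replicate block or the Actb ratio, and 0 to 1 without 1 array.

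Samples with the same number were not treated as paired. Their deviations from the group means correlated at 0.0282, 0.0941 and 0.0535 for numbers 5, 6 and 7. No correlation between unlike numbers is given, so these values cannot settle whether the samples were paired. With the replicate block Slc25a53 was at -0.98 (adjusted p = 0.106) and Slc25a5 at 0.33 (adjusted p = 0.177).

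Differences that changed sign were all short of the threshold on both sides. As deposited they were Slc25a46 0.07, Slc25a45 0.185, Slc25a28 0.25, Slc25a29 0.198, Slc25a37 0.187, Slc25a51 0.326, Slc25a23 0.258, Slc25a4 0.244, Slc25a47 0.174, Slc25a22 0.134, Slc25a14 0.288 and Slc25a42 0.275. With median centring they were Slc25a51 0.0581, Slc25a14 0.0207 and Slc25a42 0.00744. With the mean of all probe sets Slc25a4 was at 0.216. With the Actb ratio they were Slc25a33 -0.012, Slc25a47 0.293, Slc25a22 0.847, Slc25a26 -0.605 and Slc25a13 -0.454, and with the replicate block Slc25a13 was at -0.0143. Without 1 array, ranges that crossed 0 were -0.161 to 0.00748 for Slc25a47, -0.365 to 0.077 for Slc25a22, -0.351 to 0.133 for Slc25a14, -0.0262 to 0.283 for Slc25a26, -0.0433 to 0.0754 for Slc25a11, -0.0434 to 0.0358 for Slc25a42 and -0.108 to 0.17 for Slc25a13.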
